A study of Homo sapiens with 6 samples.

Results

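The genes described here are 48 cytokine, chemokine and NF-kB genes of the 60504 genes in the count table, measured by RNA-seq in SK-MEL-28, an established human melanoma cell line. They were taken by gene symbol from a list of secreted cytokines and chemokines, colony-stimulating factors, cytokine receptors, adhesion molecules, NF-kB subunits and feedback genes. The rule uses no measured value, but the list was chosen with earlier results of these data known. The cells carried either an empty vector plasmid (EV, 3 libraries) or a plasmid for expression of HDAC8, a class I histone deacetylase (3 libraries), and both groups were kept under hygromycin selection. No cytokine treatment is named for either group. The labels number the libraries as biological replicates, but the methods leave sequencing out of the assays that were repeated independently, and separate cultures are not described. P-values therefore measure the spread between these libraries, which may be technical.

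NF-kB is a family of dimeric transcription factors that IkB proteins hold in the cytoplasm. Signals from receptors for IL-1 or TNF activate the IkB kinases, IkB is degraded, and the released dimers switch on cytokines, chemokines, adhesion molecules and their own inhibitors. Cytokines of the IL-6 family act instead through the shared receptor subunit IL6ST and the JAK kinases on STAT3, and SOCS proteins dampen that signal. Melanoma lines are known to secrete chemokines such as CXCL8 and CXCL1, and the amounts differ widely between lines.

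Library totals ran from 20850018 to 29822917 estimated counts, and 3 counts, taken as the limit of detection in a library, correspond to 0.102 to 0.148 CPM (counts per 1000000 counts of the TMM-scaled library size). HDAC8 itself was at 16.6, 15.2 and 11.8 CPM in the EV libraries and at 14.2, 15.2 and 13.5 CPM in the libraries labelled HDAC8. The groups overlapped and did not separate on the introduced gene (log2 fold change -0.02, 95% interval -0.31 to 0.26, adjusted p = 0.924 in edgeR's quasi-likelihood test), so the groups are named by their labels throughout. Replicate 1 of the libraries labelled HDAC8 stood apart. In it, 79 genes above 1 CPM were more than 5-fold above the highest of the other libraries, against 1 to 6 such genes in each other library. None of the 79 was a member, but several, chosen after their values were seen, belong to lymphoid cells: DNTT, an enzyme of lymphocyte precursors, had 1273 counts against 28 to 150 elsewhere, and PAX5, a transcription factor of the B cell lineage, had 495 against 3 to 49. PTPRC, which marks leukocytes in general, had no count in that library and 1 at most elsewhere. All 13 members that passed the test below also passed it without that library (adjusted p 1.8e-05 to 0.0499), where 3 members were higher and 11 lower.

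Of the 48 members, 31 had enough counts to be tested, 7 had too few, and 10 had fewer than 3 counts in every library. At an adjusted p below 0.05 in edgeR's quasi-likelihood test, 13 of the 31 (41.9%) differed between the groups, where 22.7% of all 16195 tested genes did. Of these, 10 (32.3%) were lower in the libraries labelled HDAC8, beside 11.7% of all tested genes, and 3 (9.68%) were higher, beside 11.1%. Adding a log2 fold change of at least 0.58 in either direction left 6 members called (19.4%, beside 7.52% of all tested genes). CXCL8, CSF1, TNFSF9 and NFKBIE were called lower (12.9% of the tested members, beside 3.45% of all genes), and PTGS2 and SOCS2 were called higher (6.45%, beside 4.07%). The median log2 fold change of the 31 was -0.08, with 12 above and 19 below 0. That of all tested genes was 0.01, with 8330 above and 7865 below 0. The 31 are the members that passed a filter on low counts, so these counts describe the expressed members and not the whole list. CXCL8 passed that filter only through its EV libraries, where it was higher, and so the share called lower includes a gene let in by that difference. With at least 10 counts required in every library, CXCL8 was not tested and 3 members were called lower.

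**Figure D1:**
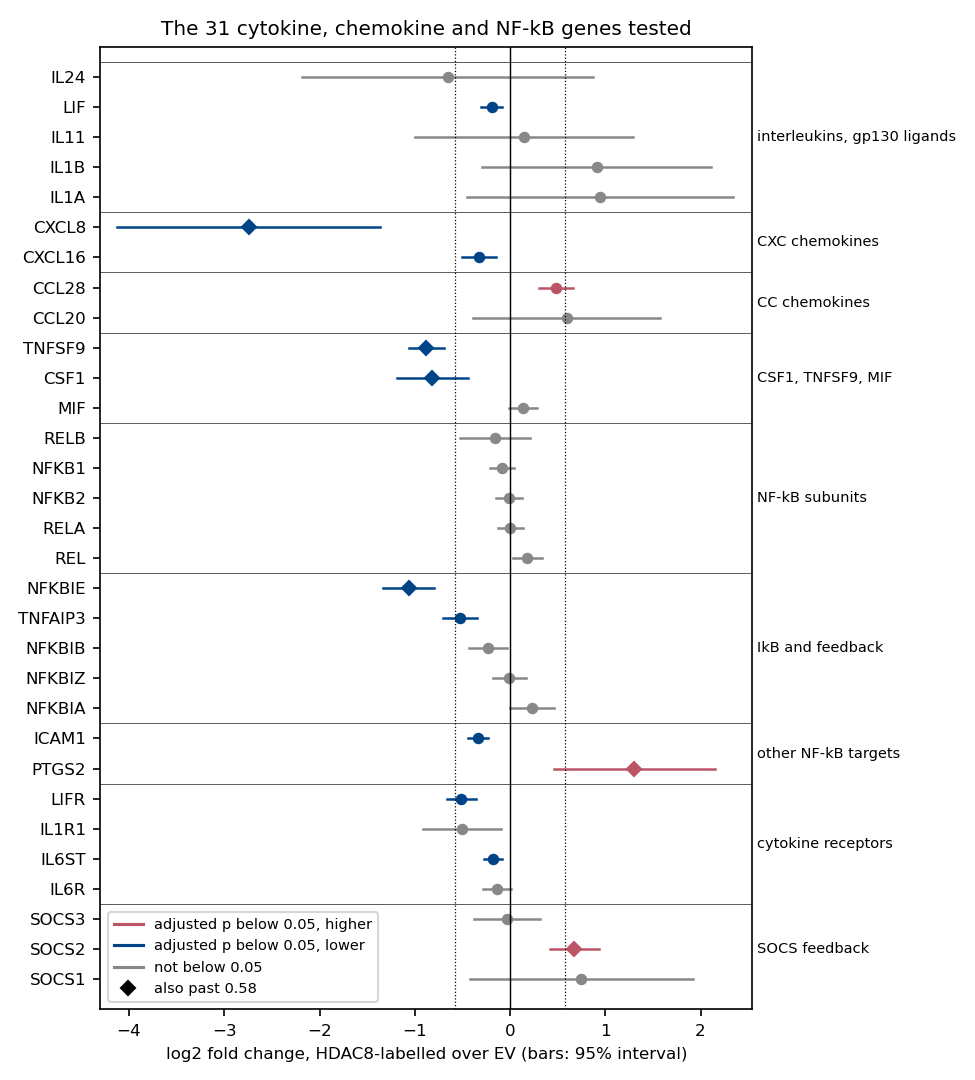
Log2 fold change (horizontal axis, libraries labelled HDAC8 over EV) of the 31 members tested, with bars for the 95% interval, ordered by role. The 10 members in blue fell and the 3 in red rose at an adjusted p below 0.05, and diamonds mark the 6 that were also past a log2 fold change of 0.58 (dotted lines).

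Levels were compared between genes as CPM per kb of merged exon length. On that scale MIF, a secreted factor abundant in most proliferating cells, was the highest member at a mean of 531 in EV and 584 in the libraries labelled HDAC8. LIF, the IL-6 family cytokine, followed at 159 and 139, and ICAM1, an adhesion molecule that leukocytes bind, at 41.4 and 32.8. TNFSF9, the ligand of 4-1BB on T cells, stood at 22.0 and 12.0. At the other end, CXCL8 was at 0.257 and 0.0350 and PTGS2 at 0.145 and 0.363. CXCL8 was at or near the limit of detection in the libraries labelled HDAC8, with 1 to 4 counts, while PTGS2 was low but above it in every library, with 12 to 61 counts.

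**Figure D2:**
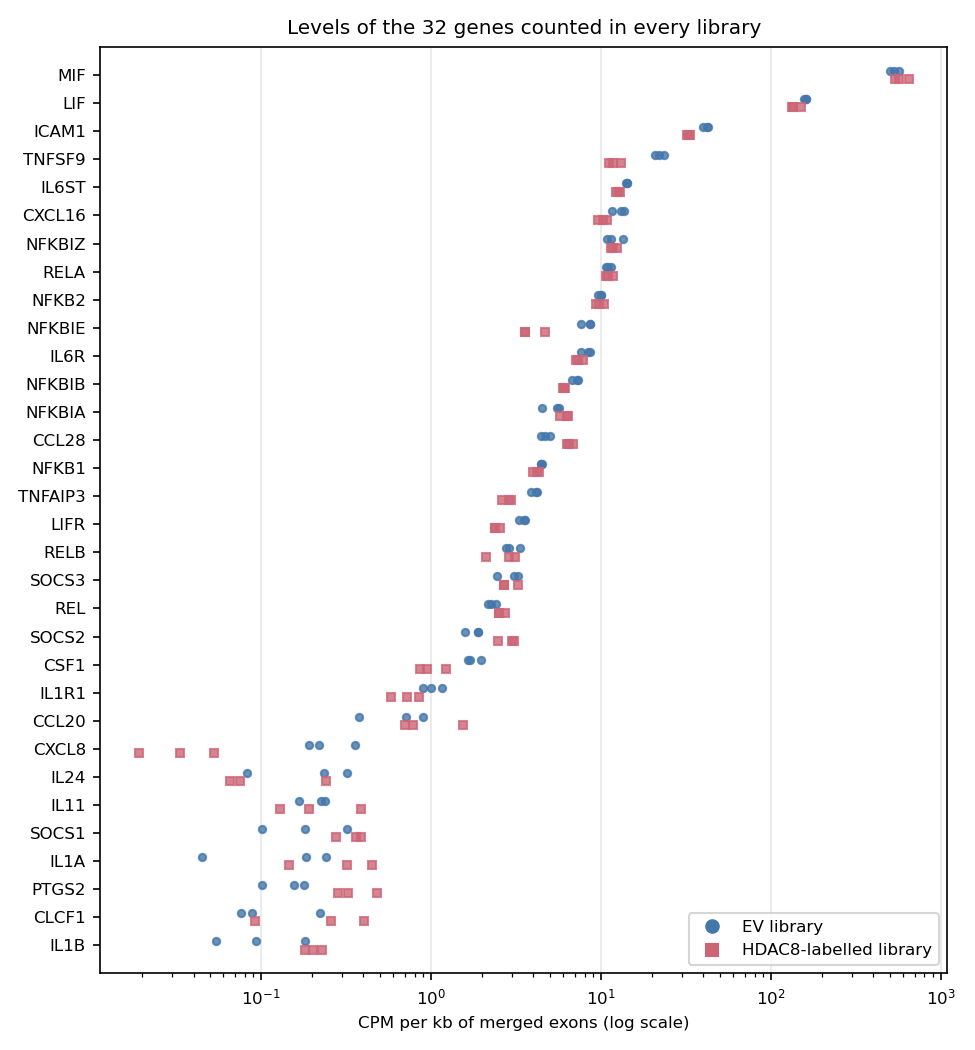
CPM per kb of merged exon length (horizontal axis, log scale) of the 32 members with counts in every library. Each EV library and each library labelled HDAC8 has its own point (n = 3 each). The 16 members without counts in some library are not drawn, and MIF and LIF lie far to the right of the NF-kB subunits.

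A group of 10 members, most of them classical inducible cytokines and chemokines, was not detectable at this depth. IL6, CXCL1, CXCL2, CXCL3, CXCL10 and CSF2 had no count in any of the 6 libraries. CXCL11 had 1 count in EV replicate 3 and 1 in HDAC8 replicate 1, and CCL2, a monocyte attractant, had 1 in EV replicate 2. CCL5, which attracts T cells, had 2 in HDAC8 replicate 3, and VCAM1, an adhesion molecule for integrin alpha4, had 1 in HDAC8 replicate 1. No fold can be given for these 10 genes, and a count of 0 limits each to below about 3 counts per library.

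A further 7 members were detected in some library but were too low to test. TNF, the prototype activator of NF-kB, had 0, 0 and 1 counts in EV and 5, 0 and 0 in the libraries labelled HDAC8. CXCL12, the ligand of CXCR4, had 5, 0 and 1 against 5, 0 and 0. The death ligand TNFSF10 had 0, 1 and 3 against 0, 1 and 0. These 3 ligands were at or near the limit in both groups. BIRC3, an NF-kB-induced inhibitor of apoptosis, had 0, 0 and 0 against 2, 0 and 3, and IL18 had 1, 0 and 0 against 0, 2 and 7. CLCF1, a ligand of the IL-6 family, had 3, 9 and 4 against 5, 15 and 11. TNFAIP2, a TNF-induced gene, had 4, 6 and 15 against 48, 0 and 10, with its highest value in the library that stood apart. None of the 11 of these 17 members that a fit without the filter could include had an adjusted p below 0.05 in edgeR's quasi-likelihood test (lowest 0.402, for BIRC3).

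Among interleukins and ligands that use IL6ST, LIF was the most abundant and fell slightly. LIF had 621, 607 and 619 CPM in EV and 521, 517 and 581 CPM in the libraries labelled HDAC8. Every EV library was above every library labelled HDAC8. The means were 616 ± 7.16 and 539 ± 35.9 CPM (SD, n = 3 each), a log2 fold change of -0.19 (SE 0.05, adjusted p = 0.0163 in edgeR's quasi-likelihood test). It no longer passed without EV replicate 1, EV replicate 3 or HDAC8 replicate 2 (log2 fold changes of -0.19, -0.19 and -0.17). The 4 other tested interleukins were low. IL1A, an alarmin of epithelial cells, had 8, 2 and 12 counts in EV and 19, 6 and 21 in the libraries labelled HDAC8, and its log2 fold change of 0.95 did not pass (adjusted p = 0.336). IL1B, the secreted form of IL-1, had 6, 12 and 4 against 18, 11 and 16 counts (0.91, adjusted p = 0.280). Summed over libraries, the ratios were 1.96 for IL1A (counting interval 1.15 to 3.42) and 1.91 for IL1B (1.13 to 3.35), both above 1, but counting error leaves out the spread between libraries that the test includes. IL11 had 13, 14 and 11 against 15, 21 and 8 counts (0.15, adjusted p = 0.880), and IL24 had 10, 14 and 4 against 14, 3 and 3 (-0.66, adjusted p = 0.565). None of these 4 interleukins passed the test in edgeR, and 0 passed in DESeq2 or at an unadjusted p below 0.05.

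The CXC chemokines came down to a pair of genes. CXCL8 (interleukin-8, which recruits neutrophils, GRCh38 chr4:73740519-73743716, plus strand) had counts of 20, 11 and 14 in EV, and those labelled HDAC8 had 4, 1 and 2. The lowest EV library was above the highest library labelled HDAC8. Mean levels were 0.665 ± 0.231 and 0.0905 ± 0.0434 CPM, and the log2 fold change was -2.74 (SE 0.63, 95% interval -4.13 to -1.36, adjusted p = 0.00815 in edgeR's quasi-likelihood test). Summed over libraries, 45 counts stood against 7, a depth-adjusted ratio of 0.146 with a counting interval of 0.0554 to 0.325. The call rests on few counts: it was lost without EV replicate 1 (log2 fold change -2.44) or without HDAC8 replicate 2 (-2.51), and over the alternatives run the adjusted p ranged from 0.00812 to 0.0654.

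CXCL16, a membrane-bound chemokine for CXCR6-bearing lymphocytes, was the abundant CXC member, with 36.5, 32.6 and 38.2 CPM in EV. The libraries labelled HDAC8 had 28.5, 26.8 and 30.4 CPM, all below the lowest EV library. The log2 fold change was -0.32 (SE 0.08, adjusted p = 0.0143), and it no longer passed without EV replicate 1, EV replicate 3 or HDAC8 replicate 2 (-0.31, -0.28 and -0.29). CXCL1, CXCL2 and CXCL3, the neutrophil attractants encoded near CXCL8, had no counts at all.

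Because the NF-kB pathway acts through DNA sites in such promoters, the 250 bases before the start of 4 members are shown (RefSeq starts, GRCh38.p14), with matches to the searched motifs in capitals. CXCL8 and CXCL1 are neighbouring NF-kB target genes of which the first was counted and the second was at 0, TNFAIP3 is a feedback gene that fell, and PTGS2 is a target gene that rose. For NFKBIE, a feedback gene that fell further, the table held no promoter. Positions are chr4:73740319-73740568 on the plus strand for CXCL8, chr4:73869143-73869392 on the plus strand for CXCL1, chr6:137867009-137867258 on the plus strand for TNFAIP3 and chr1:186680424-186680673 on the minus strand for PTGS2.
CXCL8: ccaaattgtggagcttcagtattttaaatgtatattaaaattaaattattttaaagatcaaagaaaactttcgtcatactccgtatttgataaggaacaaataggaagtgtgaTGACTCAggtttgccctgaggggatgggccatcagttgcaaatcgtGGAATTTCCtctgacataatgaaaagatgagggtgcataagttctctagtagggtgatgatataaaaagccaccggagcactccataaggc
CXCL1: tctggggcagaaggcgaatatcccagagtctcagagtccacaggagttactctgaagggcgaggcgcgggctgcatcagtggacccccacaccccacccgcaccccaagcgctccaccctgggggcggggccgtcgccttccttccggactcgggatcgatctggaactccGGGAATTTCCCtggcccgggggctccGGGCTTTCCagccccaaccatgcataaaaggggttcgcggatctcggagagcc
TNFAIP3: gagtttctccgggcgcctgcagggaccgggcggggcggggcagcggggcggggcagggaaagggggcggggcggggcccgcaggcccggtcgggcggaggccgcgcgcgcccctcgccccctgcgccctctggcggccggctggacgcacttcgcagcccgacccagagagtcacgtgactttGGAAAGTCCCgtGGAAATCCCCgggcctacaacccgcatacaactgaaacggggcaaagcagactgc
PTGS2: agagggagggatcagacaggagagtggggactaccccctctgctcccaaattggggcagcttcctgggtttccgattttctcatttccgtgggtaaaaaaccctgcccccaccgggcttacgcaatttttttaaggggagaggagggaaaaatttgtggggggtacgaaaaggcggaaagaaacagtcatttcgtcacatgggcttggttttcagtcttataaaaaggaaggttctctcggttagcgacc
The motifs were the degenerate 10-base NF-kB consensus, a shorter 9-base form (GGNNNTTCC) and the AP-1 motif TGANTCA, each on both strands. The shorter form overlaps the consensus and was added after the data were seen, since the CXCL8 site does not match the consensus. CXCL8 held an AP-1 match at 137 to 131 bases before the start and a short NF-kB match at 91 to 83. CXCL1 held overlapping consensus matches at 79 to 70 and 78 to 69 bases and a short match at 53 to 45. TNFAIP3 held consensus matches at 67 to 58 and 55 to 46 bases, and the PTGS2 stretch held no match of the 3 motifs. A stretch without a match may still hold an NF-kB site, since the CXCL8 site also misses the consensus. Sites that depart from the motifs were not searched for.

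The promoter table held 52 entries for 38 of the 48 members. The 10-base consensus was present in 18 of the 52 (34.6%), beside 5.21% of all 35116 promoters in the table. The short form was in 23 (44.2%, beside 17.1%) and the AP-1 motif in 6 (11.5%, beside 6.57%). Many members with the consensus were silent here. Of 16 genes with such a promoter, 7 were not detectable in these cells, 1 was too low to test and 8 were tested. TNFAIP3 was the member among those 8 that passed the test, and it fell. Of all tested genes, 11.7% fell. With the short form, 21 genes matched, of which 11 were tested and 4 fell (CXCL8, ICAM1, LIFR and TNFAIP3). That form was added because of the CXCL8 site, after CXCL8 was seen to fall. CXCL8 was thus bound to be among the 4, and their number is no evidence about the motif. Genes of this list are well known NF-kB targets, so a raised share of matches is a property of the list and not a result about these libraries.

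Of the CC chemokines, CCL28 rose and CCL20 did not pass the test. CCL28, a mucosal chemokine that binds CCR10, had 21.2, 20.0 and 22.5 CPM in EV and 31.1, 28.6 and 29.3 CPM in the libraries labelled HDAC8. The groups did not overlap, and the libraries labelled HDAC8 were the higher. The log2 fold change was 0.48 (SE 0.08, adjusted p = 0.00103), short of the fold threshold for a call. CCL20, the ligand of CCR6 and an NF-kB target, had 13, 25 and 35 counts in EV against 33, 50 and 29, which overlapped (0.59, adjusted p = 0.393).

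CSF1 and TNFSF9 were both called lower. CSF1, the growth factor of macrophages (chr1:109910242-109930992, plus strand), had 8.91, 8.67 and 10.3 CPM in EV and 4.48, 4.94 and 6.42 CPM in the libraries labelled HDAC8. The groups were well apart, with means of 9.28 ± 0.851 and 5.28 ± 1.02 CPM and a log2 fold change of -0.82 (SE 0.17, adjusted p = 0.00472). TNFSF9 (chr19:6531026-6535924, plus strand) had 35.7, 33.7 and 38.3 CPM in EV and 18.2, 19.2 and 21.3 CPM in the libraries labelled HDAC8. Every library labelled HDAC8 was far below every EV library, at means of 35.9 ± 2.30 and 19.6 ± 1.57 CPM and a log2 fold change of -0.88 (SE 0.09, adjusted p = 1.8e-05, the smallest of any member). MIF had 384, 367 and 413 CPM against 393, 471 and 414, and the groups overlapped (log2 fold change 0.13, 95% interval -0.01 to 0.28, adjusted p = 0.183).

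**Figure D3:**
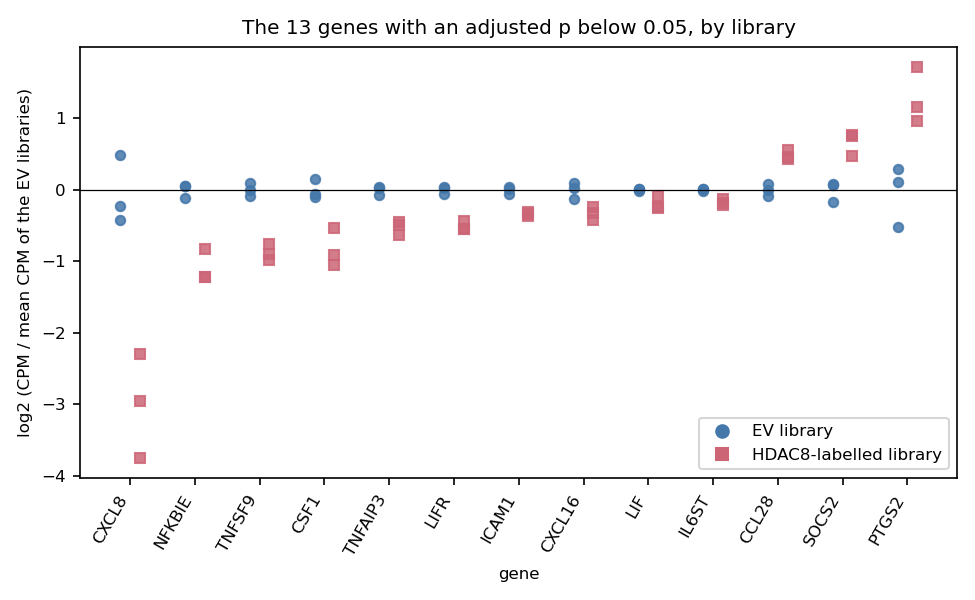
Log2 ratio of CPM to the mean CPM of the EV libraries (vertical axis) for each member that passed the test, 1 point per library (n = 3 in each group). The horizontal line marks the mean of the EV libraries. This scale leaves out the level: CXCL8 and PTGS2 were at or below 2.63 CPM, while LIF, ICAM1 and IL6ST were above 100 CPM in every library.

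None of the NF-kB subunits passed the test in either direction. RELA, the main activating subunit, had 62.8, 60.1 and 58.7 CPM in EV and 59.6, 64.0 and 58.4 CPM in the libraries labelled HDAC8, which overlapped throughout. Its log2 fold change was 0.00 (95% interval -0.13 to 0.13, adjusted p = 0.989). NFKB1, whose product p50 pairs with RELA, had 70.1, 69.3 and 69.1 CPM in EV against 68.0, 66.2 and 62.6 (-0.08, 95% interval -0.21 to 0.04, adjusted p = 0.340). REL, the subunit best known from lymphocytes, had 38.3, 41.2 and 37.2 against 42.9, 46.5 and 43.1 CPM, with every library labelled HDAC8 the higher (0.18, 95% interval 0.03 to 0.33, adjusted p = 0.0820). The interval of NFKB2, of the non-canonical pathway, was -0.14 to 0.13, and that of its partner RELB was -0.52 to 0.21. In edgeR's quasi-likelihood test 0 of the 5 subunits passed, 1 (REL) had an unadjusted p below 0.05, and 0 passed in DESeq2.

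Of the 5 tested inhibitors and feedback genes of NF-kB, a pair fell and the others did not pass. NFKBIE (IkB epsilon, chr6:44258166-44265788, minus strand), which retains RELA and REL dimers in the cytoplasm, had 22.2, 19.7 and 22.3 CPM in EV. The libraries labelled HDAC8 had 12.1, 9.18 and 9.23 CPM, well below every EV library. EV was 2.09-fold higher, with means of 21.4 ± 1.48 and 10.2 ± 1.69 CPM (log2 fold change -1.07, SE 0.12, adjusted p = 6.89e-05). TNFAIP3 (A20), the ubiquitin-editing enzyme that ends TNF signalling, had 24.9, 26.7 and 27.0 CPM in EV and 18.6, 16.9 and 19.1 CPM in the libraries labelled HDAC8. These groups also lay apart (log2 fold change -0.52, SE 0.08, adjusted p = 0.000775), under the fold threshold. An antisense RNA, WAKMAR2, overlaps TNFAIP3, and whether the counting used strand is not given in the sources used here. Of the other members that passed the test, LIF, CXCL16, ICAM1, PTGS2, IL6ST, LIFR and SOCS2 also overlap genes on the opposite strand, so the same limit holds for them.

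NFKBIA, the classical IkB alpha that NF-kB induces within minutes, did not pass the test, and its difference had the opposite sign to that of NFKBIE. It had 19.2, 15.2 and 18.6 CPM in EV and 19.5, 21.6 and 21.3 CPM in the libraries labelled HDAC8 (0.23, adjusted p = 0.140). NFKBIB, a further IkB, had 15.7, 16.8 and 17.0 against 13.8, 14.2 and 14.1 CPM (-0.23, adjusted p = 0.0908). In both, the groups did not overlap. NFKBIZ, a nuclear co-regulator and the most abundant gene of this role, had 64.3, 79.6 and 67.7 against 73.7, 67.4 and 69.4 CPM, and its interval ran from -0.18 to 0.17.

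ICAM1 and PTGS2, the 2 tested members listed as adhesion and other NF-kB targets, went in opposite directions. ICAM1 had 144, 137 and 147 CPM in EV and 113, 111 and 115 CPM in the libraries labelled HDAC8, a narrow spread and no overlap. Its means were 143 ± 5.20 and 113 ± 1.72 CPM (log2 fold change -0.33, SE 0.05, adjusted p = 0.000418). PTGS2 (cyclooxygenase-2, the inducible enzyme of prostaglandin synthesis, chr1:186671791-186680922, minus strand) had counts of 12, 19 and 24 in EV, and those labelled HDAC8 had 46, 36 and 61. Each library labelled HDAC8 was above each EV library, at means of 0.797 ± 0.216 and 1.99 ± 0.565 CPM. The log2 fold change was 1.31 (SE 0.38, 95% interval 0.46 to 2.15, adjusted p = 0.0292), and the summed counts of 55 and 143 gave a ratio of 2.43 with a counting interval of 1.77 to 3.39. The call is fragile: leaving out any library other than HDAC8 replicate 1 ended it, with log2 fold changes of 1.05 to 1.48. The lncRNA PACERR overlaps the 5′ end of PTGS2 on the opposite strand.

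Both receptor subunits that bind LIF fell. LIFR had 40.2, 43.1 and 42.9 CPM in EV and 31.1, 28.7 and 28.7 CPM in the libraries labelled HDAC8, with a wide gap between the groups (log2 fold change -0.51, SE 0.07, adjusted p = 0.000262). IL6ST, the shared signalling subunit, had 170, 172 and 172 CPM against 151, 156 and 148, a small and even difference (-0.18, SE 0.05, adjusted p = 0.0138) that no longer passed the test without EV replicate 3 (-0.18). IL6R, which confers binding of IL-6, had means of 57.3 ± 3.68 and 52.2 ± 2.50 CPM and did not pass (-0.13, adjusted p = 0.189). IL1R1, the signalling receptor of IL-1, had 7.10, 8.27 and 6.39 CPM in EV and 6.01, 4.15 and 5.13 CPM in the libraries labelled HDAC8. The groups lay apart, but the difference did not pass (-0.50, adjusted p = 0.0770). Without HDAC8 replicate 1 it did, at a log2 fold change of -0.65 and an adjusted p of 0.0412 in edgeR's quasi-likelihood test.

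Of the SOCS genes, which are induced by cytokines and limit JAK activity, SOCS2 rose. SOCS2 (chr12:93569814-93583487, plus strand), best known from growth hormone signalling through STAT5, had 12.3, 10.3 and 12.2 CPM in EV and 19.8, 16.1 and 19.5 CPM in the libraries labelled HDAC8. The groups did not overlap, and the means were 11.6 ± 1.14 and 18.5 ± 2.06 CPM (log2 fold change 0.68, SE 0.12, adjusted p = 0.00136). SOCS3, the feedback gene of STAT3, had 6.64, 8.90 and 8.42 against 7.30, 8.83 and 7.33 CPM, which overlapped (-0.03, 95% interval -0.38 to 0.31, adjusted p = 0.911). SOCS1 had 7, 4 and 14 against 19, 10 and 16 counts (0.75, adjusted p = 0.368).

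Over all tested members, the groups did not overlap in 19 of 31 (61.3%), beside 38.0% of all tested genes. Of these, 13 were lower in the libraries labelled HDAC8, beside 19.4% of all genes, and 6 were higher, beside 18.7%. In bulk RNA, fewer cells that express a gene and less of its RNA in each cell cannot be told apart.

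The JAK-STAT genes that are not members went down in part. Of 23 tested of 24 listed, 8 (34.8%) fell, beside 11.7% of all tested genes, and 4 (17.4%) were called lower, beside 3.45%. No gene of the list rose in edgeR's quasi-likelihood test, 2 were higher at an unadjusted p below 0.05, and 1 was higher in DESeq2. JAK2, a kinase that serves IL6ST and many other cytokine receptors, had 42.6, 39.6 and 42.8 CPM in EV and 20.5, 18.2 and 16.8 CPM in the libraries labelled HDAC8, with no overlap (log2 fold change -1.17, SE 0.09, adjusted p = 1.57e-06). STAT5A, a transcription factor that JAK2 phosphorylates, had 51.0, 44.5 and 43.5 against 25.6, 26.4 and 24.9 CPM (-0.85, SE 0.08, adjusted p = 1.01e-05). PTPN1, a phosphatase that dephosphorylates JAK2, had 319, 295 and 305 against 178, 178 and 189 CPM (-0.75, SE 0.05, adjusted p = 4.57e-07). JAK3, the kinase of the common gamma chain, had 39.8, 41.1 and 37.9 against 22.5, 27.1 and 28.5 CPM (-0.61, SE 0.09, adjusted p = 0.000465).

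STAT3, STAT5B, PIAS2 and SOCS4 made up the other 4 that fell, with log2 fold changes of -0.24, -0.29, -0.38 and -0.28, and are named after their values were seen. JAK1, the main kinase of IL6ST, had 218, 223 and 217 CPM against 227, 228 and 221 and did not pass the test. Activating kinases (JAK2 and JAK3) and a phosphatase that acts on JAK2 (PTPN1) were thus among the genes that fell, beside a feedback gene (SOCS2) that rose.

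**Figure D4:**
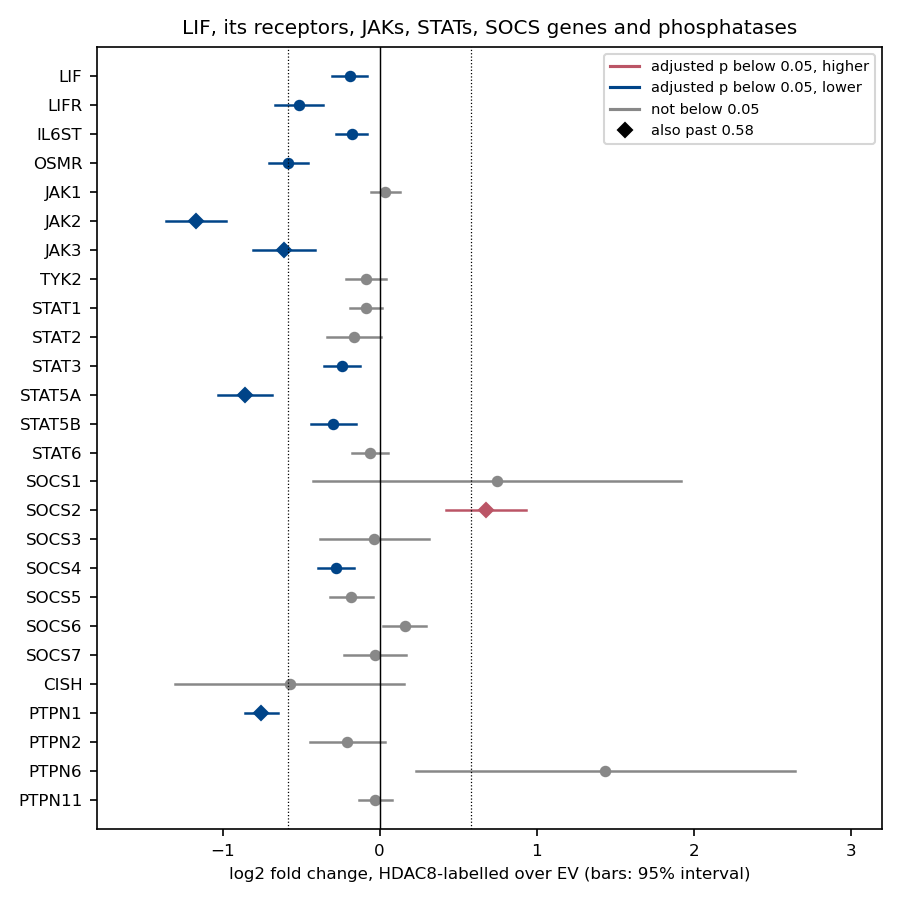
Log2 fold change (horizontal axis, libraries labelled HDAC8 over EV) with 95% intervals for LIF, its receptors and OSMR, and most genes of JAK-STAT signalling. STAT4 and the PIAS genes, of which PIAS2 fell, are not drawn. JAK2 (-1.17), STAT5A (-0.85), PTPN1 (-0.75) and JAK3 (-0.61) lie past the lower dotted line and SOCS2 (0.68) past the upper one. SOCS1 (0.75) also lies past the upper line but did not pass the test. PTPN6 has a larger log2 fold change (1.44, adjusted p = 0.0859) that did not pass, with a wide interval, 114 counts in HDAC8 replicate 1 and 11 to 27 elsewhere.

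Of the receptors and partners of the member ligands, 22 of 47 could be tested. There, 2 rose and 3 fell (22.7% in all), a share like that of all tested genes. The 2 that rose were also called, 9.09% of those tested, beside 4.07% of all genes called higher and 7.52% called in either direction. IL22RA1, a subunit of the IL-24 receptor, had 0.511, 0.181 and 0.488 CPM in EV and 2.55, 2.86 and 2.20 CPM in the libraries labelled HDAC8, a gain from a very low level (log2 fold change 2.67, SE 0.42, adjusted p = 0.000709). IL22RA1 passed the filter on low counts only with the help of the libraries labelled HDAC8, where it was higher. ITGA4, the integrin alpha4 subunit of the VCAM1 receptor, had 38.6, 41.9 and 38.7 against 76.4, 66.4 and 67.6 CPM (0.82, SE 0.07, adjusted p = 6.44e-06). Its ligand VCAM1 was not detectable in the same cells. OSMR, which pairs with IL6ST to bind oncostatin M and is named after its values were seen, fell from 67.4 ± 2.21 to 45.1 ± 0.567 CPM at a log2 fold change just short of the threshold (-0.58 when rounded, adjusted p = 1.96e-05). With CSF2RA and CD44 it made up the 3 that fell. In the library that stood apart, receptor genes of leukocytes were high: CXCR4 had 102 counts there against 0 to 14 elsewhere, CD74 had 716 against 26 to 119 and ITGB2 had 49 against 0 to 14. Without that library 2 genes of the list rose and 4 fell.

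Upstream of NF-kB, 41 of 44 genes were tested. Of these, 2 rose (4.88%, beside 11.1% of all tested genes) and 8 fell (19.5%, beside 11.7%). In all this was 24.4%, near the 22.7% of all tested genes. Log2 fold changes were below 0 for 30 and above for 11, beside 7865 below and 8330 above among all tested genes. TRAF1, an adaptor of TNF receptors and itself an NF-kB target, had 4.69, 4.52 and 4.19 CPM in EV and 1.43, 2.17 and 2.11 CPM in the libraries labelled HDAC8 (-1.24, SE 0.25, adjusted p = 0.00385). TNFRSF11A (RANK), the receptor of the osteoclast factor RANKL, had 0.557, 0.813 and 0.814 against 2.27, 1.83 and 2.11 CPM (1.50, SE 0.35, adjusted p = 0.00875). In both genes the groups were apart, and they were the only ones of this list past both thresholds in edgeR's quasi-likelihood test (4.88% of those tested, beside 7.52% of all tested genes).

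Of 52 other genes known as NF-kB targets, 21 could be tested, and 15 were not detectable. Of those tested, 6 fell and 2 rose (38.1%, beside 22.7% of all tested genes), and 4 were called, all lower (19.0%, beside 3.45% of all genes called lower). BCL2A1, an anti-apoptotic protein of the BCL2 family that melanocytic cells also control through MITF, had 37.1, 34.0 and 38.8 CPM in EV against 19.4, 22.7 and 16.3 (-0.92, adjusted p = 9.7e-05). SDC4, a heparan sulfate proteoglycan, had 72.1, 65.5 and 72.0 against 42.2, 45.6 and 45.4 CPM (-0.66, adjusted p = 1.89e-05). PTGES, which makes prostaglandin E2 from the product of PTGS2, had 3.25, 3.66 and 3.54 against 1.70, 1.68 and 1.81 CPM (-1.01, adjusted p = 0.0122), so that it fell where PTGS2 rose. Complement C3 had 2.00, 2.76 and 1.30 against 0.849, 0.197 and 0.819 CPM (-1.66, adjusted p = 0.0342). Its call was lost without EV replicate 1 or 2 or without HDAC8 replicate 2 (-1.28 to -1.67). C3 passed the filter on low counts with the help of the EV libraries, where it was higher.

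All 6 melanocyte markers checked for the labelled cell type were detected, TYRP1 only at 5 to 46 counts. PMEL (log2 fold change 0.34), TYR (0.44), SOX10 (0.23) and TYRP1 (1.76, adjusted p = 0.0204) rose, DCT fell (-1.77, adjusted p = 1.13e-09) and MLANA did not pass (-0.08) in edgeR's quasi-likelihood test. The summed level of the melanocyte list was 5450 to 5808 CPM in EV and 6533 to 7111 CPM in the libraries labelled HDAC8, of which PMEL alone made up 4149 and 5254 CPM on average. The 9 leukocyte markers summed to 29.1 to 30.6 CPM and 26.4 to 36.3 CPM, most of it CD68 (means of 27.0 and 26.5 CPM). Of the 9, 5, among them PTPRC and CD14, were below 3 counts in every library. CD79A, also of this list, had 177 counts in HDAC8 replicate 1 and 9 to 28 elsewhere. The fibroblast list summed to 43.0 to 45.4 and 54.3 to 59.9 CPM, most of it LUM (means of 36.7 and 49.7 CPM), while COL1A1 and PDGFRB had log2 fold changes of -0.50 and -0.15 and did not pass. The endothelial list summed to 3.34 to 4.43 and 3.49 to 4.62, and the keratinocyte and epithelial list to 83.5 to 95.5 and 93.3 to 108. The melanocyte and fibroblast sums did not overlap between the groups, but their genes did not all go the same way, and their part in the members' differences was not tested.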

How the data were processed

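RNA-seq was analysed in 3 EV and 3 HDAC8-labelled libraries of SK-MEL-28, grouped by their titles. The deposited table held the RSEM estimated counts of each Ensembl gene without normalization. Per the labels and methods, reads were trimmed with Trimmomatic, aligned to GRCh38 with STAR and quantified with RSEM, which splits reads shared between genes (5351 to 5685 values per library were not whole, and LIF, MIF, REL, NFKBIZ, ICAM1, LIFR and SOCS2 had decimals). The labels and the methods name different purification and library kits, and versions were not used here. A second deposited table, of the authors' fold changes, p-values and group values, was not used.

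Counts were rounded, filtered (filterByExpr), scaled by TMM (factors 0.973 to 1.032) and tested with edgeR 4.0.16 (quasi-likelihood, R 4.3.3, limma 3.58.1), HDAC8-labelled over EV, with Benjamini-Hochberg adjustment over 16195 genes. Genes were called at an adjusted p under 0.05 with a log2 fold change of 0.58 or more in size. CPM used TMM library sizes; lengths are merged GENCODE exons. The script was tested on simulated data. Intervals on summed counts cover counting error only. Alternatives were DESeq2 1.42.0, upper-quartile scaling, no filter, at least 10 counts in every library, unrounded counts, other thresholds, each library left out and a replicate block. Promoters came from RefSeq.

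Named were all members past an adjusted p of 0.05, those under 3 counts in every library, the most abundant of each role, and, of the other lists, up to 6 genes per list past both thresholds. Members and lists were chosen with earlier results of these data known.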

Additional observations from a re-analysis of the deposited data

How the results depend on the processing

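DESeq2, upper-quartile scaling, no filter and unrounded counts kept the same 13 members past an adjusted p of 0.05 and the same 6 called. Replicates share numbers 1 to 3, but the deviations of same-numbered libraries correlated at -0.04, -0.11 and -0.02 over 9743 genes, so the numbers were not taken to pair libraries. With the replicate block the same 13 and 6 members passed, and C3 lost its call (-1.70). CCL28, CSF1, TNFSF9, NFKBIE, TNFAIP3, ICAM1, LIFR and SOCS2 passed in every fit run. Dropping the fold threshold gave 1790 higher and 1891 lower genes, with 10 members among the lower, and raising it to 1 gave 391 and 309, with 1 and 2 members. Leaving out a library gave 1 to 2 members called higher and 3 to 5 lower. Of the pathway genes that are not members, 3 were called higher and 9 lower; this became 6 higher without the filter, 6 and 25 with no fold threshold, 5 higher at an unadjusted p, 3 to 5 higher with a library left out, and 4 lower with the threshold raised to 1. The median of the members, -0.08, was -0.14 at 10 counts in every library, where 25 members were tested and CXCL8 was not, -0.0294 without the filter, and -0.153 to -0.00541 with a library left out (the ends without HDAC8 replicate 2 and without EV replicate 2, and -0.0276 without HDAC8 replicate 1). The log2 fold change of HDAC8 ran from -0.158 to 0.0797 with a library left out. Differences near 0 changed sign for RELA (-0.000793 in DESeq2, -0.00207 at 10 counts, -0.00635 without the filter, -0.0459 to 0.0263 with a library left out), NFKBIZ (0.000984 with upper-quartile scaling, -0.07 to 0.0865 with a library left out), and, with a library left out, for NFKB2 (-0.0585 to 0.0192), SOCS3 (-0.152 to 0.0472) and IL11 (-0.386 to 0.431). The cause of these moves was not tested. Depth limits the cytokines: 10 members were under 3 counts in every library, and the calls of CXCL8 and PTGS2 rest on 45 and 7, and 55 and 143, summed counts.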

Other observations

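Of 30 genes of the pathway lists that were detected but below the filter on low counts, 7 had groups that did not overlap (23.3%, beside 38.0% of all tested genes), 3 of them higher and 4 lower in the libraries labelled HDAC8. All tested genes passed that filter, so these shares are not directly comparable, and the share over all genes below it was not computed. A pair of the 7 genes, picked after their values were seen, is described. MMP9, the gelatinase that NF-kB induces in many cells, had 10, 5 and 7 counts in the EV libraries and no count in any library labelled HDAC8. Against the floor of 3 counts per library, EV was at least 2.57-fold higher (0.325 CPM over 0.126 CPM), and in the fit without the filter the adjusted p was 0.00835 (edgeR's quasi-likelihood test). IL18R1, the binding subunit of the IL-18 receptor, had 4, 3 and 2 counts in EV and 19, 15 and 8 in the libraries labelled HDAC8, which did not pass in that fit (log2 fold change 2.06, adjusted p = 0.102).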
